A study of Mus musculus with 28 samples.

Results

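The response of islet transcripts to S961 was examined in the mice labelled as controls, which gave 14 of the 28 libraries of the series. The comparison set 8 labelled control libraries after S961 against 6 after saline, chosen by their titles. S961 is a peptide that blocks the insulin receptor and thereby causes insulin resistance. Both groups carried 2 floxed Klf6 alleles (Klf6flox/flox) with intact Ins1 (Ins1+/+) and no Cre, on a background of C57Bl6 and 129sv, and the mice were males aged 10 to 12 weeks. The remaining 14 libraries came from mice labelled βKlf6KO (Klf6flox/flox;Ins1Cre/+), in which Cre sits in 1 Ins1 allele and acts in β cells, 6 after saline and 8 after S961. Each library held RNA from 120 to 150 hand-picked islets of 1 mouse after a night in culture, so all values follow a period outside the animal. The dose and duration of S961 are not given in the sources used here.

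Insulin resistance raises the demand on β cells, which answer by releasing more insulin and, in the mouse, by re-entering the cell cycle. Dividing cells first switch on genes of DNA replication and later genes of mitosis, among them cyclin B, topoisomerase II and the motor proteins of the spindle. Many mitotic promoters carry CCAAT boxes, which NF-Y binds, and a cell cycle homology region (CHR), through which the genes are held silent outside the division phase.

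Values were log2 CPM, the log2 of reads scaled to a common library size, for the 13591 genes that reached 1 CPM in 6 or more libraries. The 14 control libraries held 28868638 to 43001024 reads over the listed genes. A count of 0 at that depth allowed up to 3 reads, or 0.0699 to 0.105 CPM, counting error being the only error covered. Klf6 did not separate the genotype labels: it lay between 6.18 and 8.42 log2 CPM in the control libraries and between 6.38 and 7.94 in the βKlf6KO libraries. The groups are therefore called labelled groups. Klf6 reads of whole islets also come from cells in which Cre does not act, and whether the labels hold was not tested. In bulk islets, fewer cells of a type and less RNA per cell cannot be told apart. Islet hormones were high in every control library, with Iapp (islet amyloid polypeptide, released with insulin) at 14.95 to 15.56 log2 CPM and Gcg (glucagon, the α cell hormone) at 14.50 to 15.88. Libraries were spread over 4 sequencing lanes, and each lane held libraries of both groups.

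No gene passed the test for S961 against saline in the labelled control islets. With limma over 13591 genes, 0 (0%) had a Benjamini-Hochberg adjusted p below 0.05, and the smallest adjusted p was 0.973. An unadjusted limma p below 0.05 was reached by 104 genes (0.765%), of which 60 (0.441%) had the higher mean after S961 and 44 (0.324%) the lower. With observation weights from voom on the reads recovered from the values, 0 genes were called and 100 reached the unadjusted threshold. By chance about 1 in 20 genes would reach that threshold, so the share was lower than chance gives. With library weights it was 735 genes (5.41%), again with 0 called. The absence of calls thus does not show that S961 had no effect. The statements below about higher and lower means are descriptions of these libraries.

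The differences were mostly small. The median size of the log2 difference was 0.11 and the 95th percentile was 0.42. A higher mean after S961 was found for 6841 genes (50.3%) and a lower one for 6750 (49.7%), so the differences were centred on 0. For 11766 genes (86.6%) the 95% interval of the difference lay within a 2-fold change in either direction, and for 8244 (60.7%) within a 1.5-fold change. The median standard error was 0.19.

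**Figure D1:**
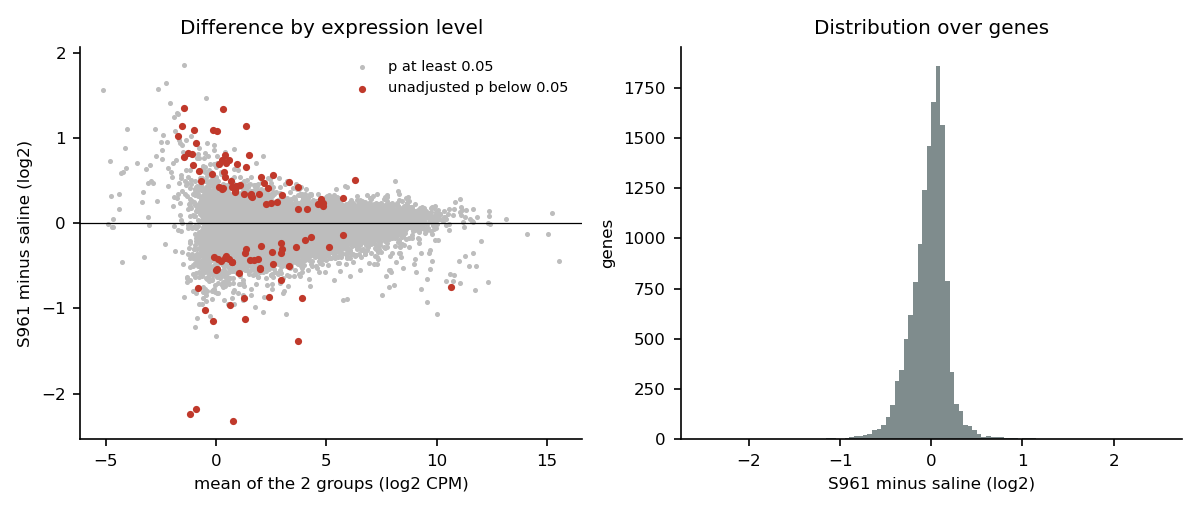
The left panel plots the log2 difference of S961 minus saline for each of 13591 genes against the mean of both labelled control groups (log2 CPM), with the 104 genes of unadjusted limma p below 0.05 in red. The right panel counts genes in bins of the same difference. The distribution is centred on 0, and the widest differences, up to 1.86 and down to -2.32, belong to genes of low level.

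A mean at least 2-fold higher was found for 22 genes and one at least 2-fold lower for 14. Of the 22 higher genes, 17 were under 1 CPM in both groups, and 5 of the 36 belonged to the lists of mitosis, replication or repair genes. The highest difference was that of the predicted gene Gm35279, at 1.86 ± 1.23 (SE), with values from -6.25 to 1.88 log2 CPM after saline and from -4.30 to 1.34 after S961. The S961 range lay inside the saline range. The lowest difference was that of the trypsinogen-like gene Gm5771, at -2.32 ± 0.84, with saline libraries from 0.29 to 4.64 and S961 libraries from -1.47 to 1.17. The trypsinogens Prss1 (-2.23 ± 0.76) and Prss3 (-1.38 ± 0.56) also had lower means. Digestive trypsinogens have near-identical copies in the mouse, so the split of reads between these genes is uncertain. None of these 4 genes passed the limma test (adjusted p = 0.973 for each), and all 4 were chosen after their values were seen.

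In 1 gene (0.00736%) the groups did not overlap. Synpo2, which encodes an actin-binding protein known from muscle and lies at chr3:123076519-123236149 (minus strand, GRCm38), had 0.48 to 1.51 log2 CPM (median 1.05) after saline and 1.54 to 2.09 (median 1.63) after S961. Every S961 library stood above every saline library, the closest values being 1.54 and 1.51. The difference was 0.66 ± 0.15 with a 95% interval of 0.36 to 0.96 (limma, adjusted p = 0.973). In the labelled βKlf6KO islets the difference was -0.30, and Synpo2 was also chosen after its values were seen.

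The 4 measures fixed for every comparison were the targeted gene, both insulin genes and Mki67. Klf6 (chr13:5861482-5870394), a zinc finger transcription factor, had a median of 6.99 log2 CPM after saline (6.35 to 7.67) and 6.79 after S961 (6.18 to 8.42). The difference was -0.06 (exact permutation p = 0.867, adjusted p = 0.867 over 5 measures). The S961 range enclosed the saline range.

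Ins1 had a median of 14.19 log2 CPM after saline (12.67 to 15.19) and 14.60 after S961 (12.05 to 15.24), a difference in means of -0.12 (exact permutation p = 0.849). Ins2 had a median of 16.30 after saline (13.16 to 16.67) and 15.69 after S961 (12.31 to 17.24), a difference of -0.44 (exact permutation p = 0.602). On the log2 scale, the Ins1 to Ins2 ratio was higher after S961 by 0.32 (exact permutation p = 0.417). Each adjusted p was 0.867 over the 5 measures, and the ranges of the groups overlapped for both insulin genes. The 95% interval for Ins2, -1.72 to 0.83, leaves room for a change of more than 2-fold downward. It rests on the shared spread, whereas the SD of Ins2 was 1.63 after S961 and 1.32 after saline. Both are wider than that spread, so the interval is too narrow and its upper end is no firm limit.

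Transcripts of dividing cells differed widely between libraries. Mki67, the marker of cycling cells at chr7:135689784-135716361, had a median of 0.42 log2 CPM after saline (-0.19 to 2.58) and 1.55 after S961 (0.35 to 4.35). Its mean was 0.77 ± 1.06 (SD, n = 6) after saline and 1.90 ± 1.56 (SD, n = 8) after S961, so that the means were 1.14 apart (exact permutation p = 0.159, adjusted p = 0.794 over 5 measures). A total of 6 of 8 S961 libraries lay above the saline mean, but only 2 lay above the highest saline library. Those 2 were S961 replicate 4 at 4.18 and replicate 6 at 4.35. The other 6 S961 libraries spanned 0.35 to 1.95, inside the saline range. Without replicates 4 and 6 the difference was 0.35 (exact permutation p = 0.502). The within-lane differences were 2.42, 0.48, 0.93 and 1.24 in lanes 4, 5, 6 and 7, each from 2 S961 libraries and 1 or 2 saline libraries.

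The list of 38 mitosis and spindle genes had a higher mean after S961 in 36 members, against 50.3% of all genes, with a median difference of 0.57 against 0.00 over all genes. Of the 38, 0 were called and 6 reached an unadjusted limma p below 0.05, all with the higher mean after S961: Hmmr, Mki67, Kif11, Ttk, Kif23 and Ect2. Kif11, the motor that pushes the spindle poles apart, had values of -2.51 to 0.59 after saline and -0.64 to 1.81 after S961, a difference of 1.10 ± 0.44 (limma, adjusted p = 0.973). Hmmr, a spindle-associated protein, had -2.37 to 1.81 after saline and -1.06 to 3.69 after S961, a difference of 1.34 ± 0.61 (limma, adjusted p = 0.973). Both pairs of ranges overlap. Without replicates 4 and 6 the median of the list was -0.06, 17 of 38 members had the higher mean, and none reached an unadjusted limma p below 0.05.

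Replicates 4 and 6 stood apart from the other 12 labelled control libraries, and no test was made of that, since the pair was singled out by its values. In both, 479 genes (3.52%) were above all other control libraries and 365 (2.69%) were below. Against the other 6 S961 libraries, both were above in 623 genes and below in 647. A gap of at least 1 on the log2 scale to the nearest of those 6 was found in 79 genes, and all 79 were higher. By the size of that gap the leading genes were Ccnb1, Ccnb2, Cenpa, Top2a, Nusap1, Hmmr, Cdc20 and Ccna2, every one a gene of mitosis or of its entry. All but Top2a and Hmmr had a median under 0 log2 CPM in the other 12, from -1.58 (Ccnb2) to -0.16 (Ccna2). The filter counted all 28 libraries, so a gene this low in most control libraries could be kept through the βKlf6KO libraries. Such a gene has room for a wide gap upward but little downward.

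Of the 38 mitosis genes, 35 were above all other 12 control libraries in both replicates, with Pttg1, Mad2l1 and Cks2 as the exceptions. The pair exceeded the mean of the other 12 by a median of 2.73 over the list, from 0.24 to 4.34. Ccnb1, the cyclin that drives entry into mitosis, was at 2.83 and 3.02 log2 CPM in replicates 4 and 6 and at -2.29 to 0.95 in the other 12. Top2a, which untangles DNA before chromosomes part, was at 4.63 and 4.92 against 0.50 to 3.31. Cdc20, which activates the anaphase-promoting complex, was at 2.02 and 2.76 against -3.08 to 0.71. For each of these 3 genes the pair lay beyond the whole range of the other 12.

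**Figure D2:**
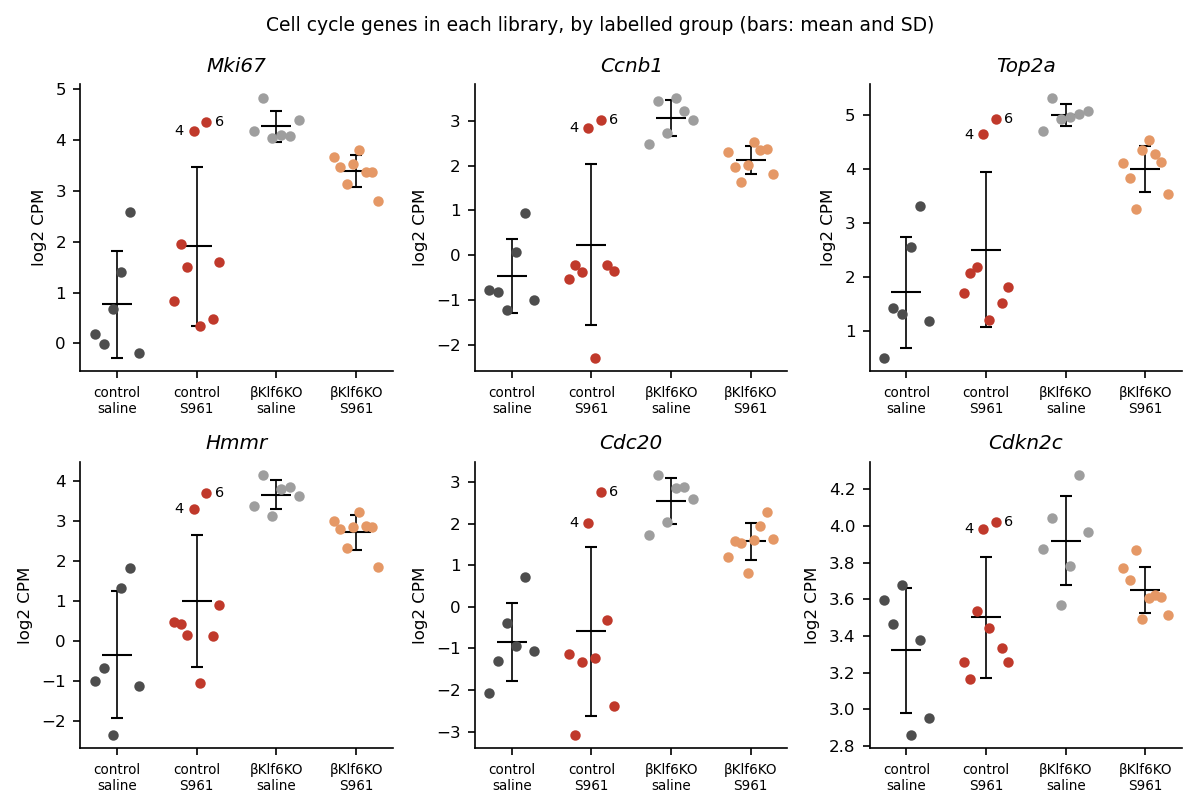
Each point is 1 library (log2 CPM), placed by labelled group, with the mean and SD of the group as bars, for 5 mitosis genes and the cell cycle inhibitor Cdkn2c. Labelled control S961 replicates 4 and 6 are numbered. In all 6 panels they lie with the labelled βKlf6KO libraries and above the other 12 control libraries, as for Ccnb1 at 2.83 and 3.02 against at most 0.95.

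Promoters of 3 of the 8 leading genes are shown, picked for their matches to motifs known from mitotic genes, so they are not typical of the 8. They are the 250 bases upstream of the RefSeq start on GRCm38.p6, written 5′ to 3′ on the gene's strand, with CCAAT on either strand and the CHR letters (TTTGAA or TTCGAA, either strand) in capitals. Ccnb2, the second B-type cyclin, is given from chr9:70421555-70421804, Top2a from chr11:99024190-99024439 and Hmmr from chr11:40733438-40733687, all on the minus strand.
Ccnb2: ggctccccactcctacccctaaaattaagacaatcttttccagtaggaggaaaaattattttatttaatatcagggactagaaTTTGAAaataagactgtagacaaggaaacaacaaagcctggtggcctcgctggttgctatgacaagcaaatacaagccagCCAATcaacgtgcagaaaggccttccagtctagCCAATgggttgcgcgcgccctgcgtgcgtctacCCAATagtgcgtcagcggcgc
Top2a: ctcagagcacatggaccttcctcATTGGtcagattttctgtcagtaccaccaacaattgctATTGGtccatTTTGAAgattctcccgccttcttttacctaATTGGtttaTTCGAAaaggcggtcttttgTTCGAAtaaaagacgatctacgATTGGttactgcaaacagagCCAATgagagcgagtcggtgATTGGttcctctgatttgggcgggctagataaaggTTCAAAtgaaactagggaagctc
Hmmr: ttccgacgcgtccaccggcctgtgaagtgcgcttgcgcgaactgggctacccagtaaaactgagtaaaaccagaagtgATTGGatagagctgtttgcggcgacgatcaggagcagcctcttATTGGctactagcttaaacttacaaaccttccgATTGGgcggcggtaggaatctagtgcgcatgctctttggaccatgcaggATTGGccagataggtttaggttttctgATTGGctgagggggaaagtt
The Ccnb2 window held 3 CCAAT and 1 CHR match, the Top2a window 6 and 4, and the Hmmr window 5 CCAAT and no CHR match. Of the 8 leading genes, 7 had a RefSeq promoter in the table, of which 6 held CCAAT and 3 held CHR letters. Nusap1 held neither, and Ccnb1 and Cenpa held CCAAT only. Among the 32 mitosis genes with a RefSeq promoter in the table, 24 (75%) held CCAAT and 9 (28.1%) held both motifs. Over all 10229 promoters matched to tested genes the shares were 36.1% and 4.69%. The E2F letters (TTTCCCGC or TTTGGCGC, either strand) occurred in 0 of the 32 mitosis promoters, in 6 of 28 promoters (21.4%) of the replication list and in 2.57% of all. A match describes letters in the window and not binding, and the absence of a match says only that these letters are not there.

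Genes of earlier cell cycle steps were examined in the same pair, and the lists were not compared with each other by a test. Both replicates were above the other 12 control libraries in 9 of 34 DNA replication genes, among them Cdc6, which loads the replicative helicase, Mcm10, Clspn and Tk1. Cdc6 was at 0.04 and 0.60 log2 CPM in the pair against -2.37 to -0.43 in the other 12. The helicase subunit Mcm2 and the sliding clamp Pcna did not stand out: Mcm2 was at 2.93 and 3.61 in the pair and at 2.11 to 3.90 in the others, and Pcna at 5.35 and 5.12 against 5.12 to 6.42. For S961 against saline the replication list had a median difference of 0.04, with 22 of 34 means higher, 0 called and 0 at an unadjusted limma p below 0.05.

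The 13 homologous recombination genes tested all had the higher mean after S961, with a median difference of 0.27, 0 called and 3 at an unadjusted limma p below 0.05: Exo1, Rad54l and Brip1. Brip1, a helicase that works with BRCA1, had -1.03 to 0.59 log2 CPM after saline and -0.36 to 1.16 after S961, a difference of 0.74 ± 0.25 (limma, adjusted p = 0.973). Its difference was 0.59 without replicates 4 and 6. The highest S961 value of Brip1, 1.16, was in replicate 2 and not in the pair. For the whole list, the median without the pair was 0.18, with 10 of 13 means higher and 2 genes at an unadjusted limma p below 0.05.

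D-type cyclins and their kinases, which act at the start of the cycle, showed no such pattern. Ccnd2, the main D cyclin of adult β cells, was at 9.78 to 10.17 log2 CPM after saline and 9.77 to 10.42 after S961, a difference of 0.04 ± 0.11 and a 95% interval of -0.17 to 0.26. Ccnd1 differed by -0.02 ± 0.07, with an interval of -0.17 to 0.13. In none of the 5 genes of this list were replicates 4 and 6 both above the other 12 control libraries. Of 19 cell cycle inhibitors and p53 targets, 10 had the higher mean and 0 were called. In this list the pair was above the other 12 in 2 genes and below them in 1, against 3.52% and 2.69% of all genes. The 2 were Cdkn2c and Cdkn2d, which both encode inhibitors of the cyclin D kinases. Cdkn2c was at 3.99 and 4.02 in the pair and at 2.86 to 3.68 in the other 12.

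The pair also lay with the labelled βKlf6KO libraries. Both replicates were within the range of the 14 labelled βKlf6KO libraries in 37 of 38 mitosis genes, against 10251 of all genes (75.4%). The mean log2 CPM over the mitosis list was 2.21 and 2.53 in the pair, -0.66 to 0.98 in the other 12 control libraries and 1.43 to 2.88 in the βKlf6KO libraries. On this measure 16 libraries of the series were at or above the lowest βKlf6KO library and 12 were below it. The 16 were the 14 labelled βKlf6KO libraries and the pair, and 6 of them carried the label saline.

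The comparison was extended to genes chosen without the values of the pair. In 75 genes (0.552%) every labelled βKlf6KO library was above all other 12 control libraries, and both replicates were at or above the lowest βKlf6KO library in 70 of the 75 (93.3%). In 26 genes (0.191%) every βKlf6KO library was below the other 12, and both replicates were at or below the highest βKlf6KO library in 13 of the 26 (50%). Of the 75 genes, 24 belonged to the mitosis, replication or repair lists, by which the pair had already stood out, with both replicates on the βKlf6KO side in 23. In the 51 genes of none of these lists, which do not hold every cell cycle gene, both were on that side in 47 (92.2%). Replicate 4 alone was on the βKlf6KO side in 71 and 17 genes, and replicate 6 in 73 and 22. Within the mitosis list, both were above every labelled βKlf6KO S961 library in 19 of 38 genes, against 403 of all genes (2.97%). Both were within the range of the labelled βKlf6KO saline libraries in 28 of 38, against 6730 of all genes (49.5%). For Mki67 the βKlf6KO saline libraries spanned 4.03 to 4.83 and the βKlf6KO S961 libraries 2.79 to 3.81, with the pair at 4.18 and 4.35. Why the pair differs from the other control libraries was not tested.

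Several genes outside cell division were also above the other 12 control libraries in the pair, and those given here were chosen after their values were seen, except Gc and Egln3. Chgb, a granule protein of endocrine cells, was at 12.41 and 12.30 log2 CPM in replicates 4 and 6, at 10.39 to 11.16 in the other 12 control libraries and at 11.73 to 12.67 in the βKlf6KO libraries. Txnip, a glucose-induced inhibitor of thioredoxin, was at 9.32 and 9.23 against 7.02 to 8.50 in the other 12. Gc, the vitamin D binding protein made by α cells, was at 9.52 and 9.78 against 7.36 to 8.54. For each of these 3 genes the pair was within the βKlf6KO range, and the other 12 were below it. Serpina7 was at 7.69 and 7.67 against 4.83 to 7.01, and Psat1, an enzyme of serine synthesis, at 7.21 and 7.12 against 6.47 to 7.05. Egln3, an oxygen-sensing prolyl hydroxylase, was at 1.83 and 1.09 against -0.19 to 0.96. For Psat1 and Egln3 the other 12 overlapped the βKlf6KO libraries (6.72 to 7.48 and 0.31 to 1.75), and Egln3 in replicate 4 was above the highest of them. Of the 26 members of the ATF4 amino acid list, 6 were above the other 12 in both replicates and 0 below, against 3.52% and 2.69% of all genes.

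Genes below the other control libraries in the pair had smaller gaps. Rsad1 was at 2.19 and 1.75 log2 CPM against 2.65 to 3.45 in the other 12. Mcoln3, a cation channel of endosomes and lysosomes, was at 2.57 and 2.45 against 3.05 to 4.09, with βKlf6KO libraries at 1.54 to 2.95. Pcdh15, a cadherin-family adhesion protein, was at 3.56 and 3.75 against 4.01 to 5.19. Cyp3a13, Diras2, Macc1 and Mpzl2 were also among the genes of widest downward gap to the other 6 S961 libraries, and for Diras2 the saline libraries reached down to 1.93, under the pair at 2.01 and 2.05. The exocytosis genes Sytl4 (9.53 and 9.46 against 9.62 to 10.73) and Vamp2 (6.97 and 6.89 against 7.07 to 7.45) were also below all other control libraries. Both were chosen after their values were seen. Of the 26 granule and exocytosis genes, the pair was above the other 12 in 2 and below in 2, against 3.52% and 2.69% of all genes.

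Replicates 4 and 6 differed from each other in immune transcripts. The summed level of the 7 lymphocyte markers tested was 264 CPM in replicate 4 and 3.55 CPM in replicate 6. The other S961 libraries held 2.17 to 10.1 CPM and the saline libraries 4.56 to 18.9 CPM. Nearly all of the sum in replicate 4 was Ighm, the heavy chain of immunoglobulin M, at 251 CPM against at most 9.39 in the other 12 libraries and 0.456 in replicate 6, a gene named here after its values were seen. The B cell genes Cd22, Cd79b and Ms4a1 were also higher in replicate 4 than in the other 12, each at no more than 4.41 CPM. Cd79a, at 2.71 CPM, and Lck, at 1.43 CPM, lay within the range of the other 12. The lymphocyte sum of replicate 6 lay within the range of the other S961 libraries. In the labelled βKlf6KO libraries the sum was 4.79 to 501 CPM after saline and 2.52 to 774 CPM after S961. Whether lymphocytes added to the mitosis transcripts was not tested. The 22 macrophage markers had a median difference of 0.17, with 16 means higher and 0 called. Both replicates were above the other 12 in 0 of these markers and in 2 of the 24 fibroblast markers, against 3.52% of all genes.

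A wider source of spread ran across both groups. The first principal component of the 14 libraries held 70.9% of the variance, and its highest scores belonged to S961 replicate 2 (125.5), saline replicate 4 (87.9) and S961 replicate 8 (69.9). The loadings of genes on it had a Spearman correlation of -0.863 with gene GC content over 13584 genes, a description across genes that share the libraries. The second component held 7.79%, with S961 replicates 4 (35.7) and 6 (34.5) highest. In 3846 genes (28.3%) the 3 libraries of the first component were all above the other 11 control libraries, and in 4037 (29.7%) all below.

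**Figure D3:**
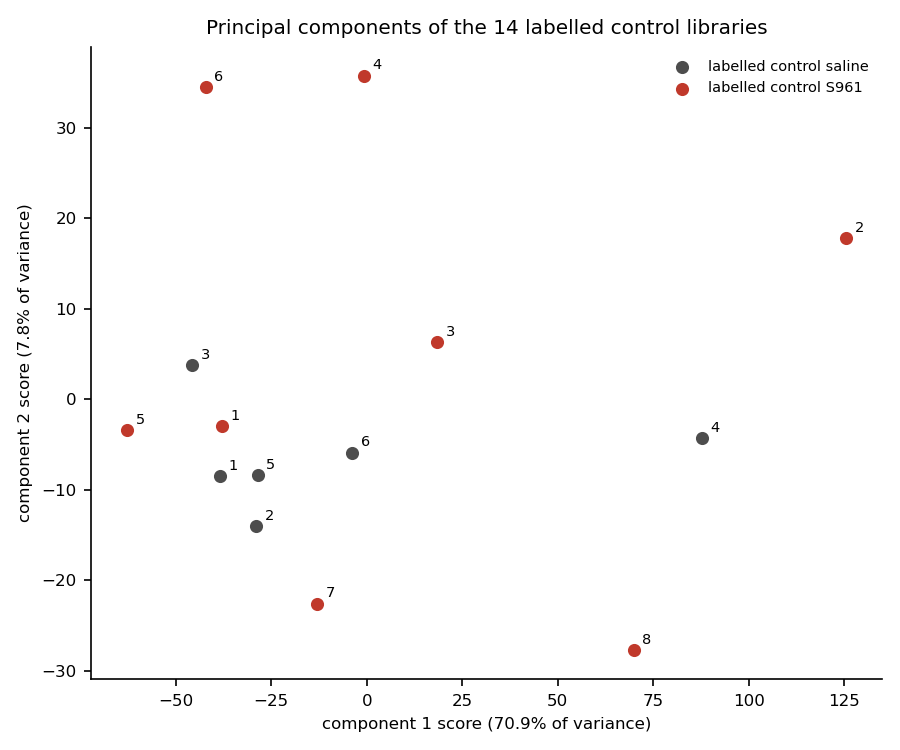
Scores of the 14 labelled control libraries on the first and second principal components, with replicate numbers beside the points, saline in grey and S961 in red. S961 replicates 2 and 8 and saline replicate 4 lie to the right on the first component, and S961 replicates 4 and 6 lie highest on the second.

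The 3 libraries had the lowest Ins2 values, 12.31 and 13.57 log2 CPM in S961 replicates 2 and 8 and 13.16 in saline replicate 4, and every other control library was at 15.33 or higher. They were highest in the endoplasmic reticulum chaperone Hspa5, at 12.68, 12.16 and 12.33 against at most 11.86, and in all 7 mitochondrially encoded genes tested. The prolactin receptor Prlr was likewise at 11.48, 10.80 and 10.53 against at most 10.20. Hspa5 and Prlr do not stand for their lists. All 3 libraries were above the other 11 in 9 and below in 5 of 25 chaperone genes. In the 12 prolactin and serotonin genes they were above in 4 and below in 4. The shares over all genes were 28.3% above and 29.7% below. All 3 were below the other 11 in 11 of 15 glycolysis genes and in 13 of 26 ATF4 genes. These libraries were in lanes 5, 6 and 7, and the part of RNA quality or library preparation in their profile was not tested.

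The spread between libraries was wider after S961. The median SD over genes was 0.45 log2 after S961 and 0.35 after saline, and 11505 genes (84.7%) had the larger SD after S961. Genes share the same libraries and are not independent, and the difference in spread was not tested. Without S961 replicates 2 and 8 the S961 median was 0.27, and without replicates 4 and 6 it was 0.48. Without saline replicate 4 the saline median was 0.18. The labelled βKlf6KO groups had medians of 0.29 after S961 and 0.21 after saline, so S961 libraries had the larger median in both genotypes.

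Genes of β cell identity had nearly equal means. Of the 37 tested, 22 had the higher mean after S961 and 15 the lower, 0 were called and 0 reached an unadjusted limma p below 0.05, with a median difference of 0.05. Pdx1, a transcription factor that maintains β cells, had 6.76 to 7.13 log2 CPM after saline and 6.82 to 7.17 after S961, a difference of 0.05 with a 95% interval of -0.13 to 0.23. Nkx6-1, another such factor, differed by -0.07 with an interval of -0.31 to 0.16. For both, the interval excluded a 2-fold change in either direction. The glucose transporter Slc2a2 differed by 0.07 (-0.30 to 0.44), and the incretin receptors Glp1r and Gipr by 0.05 (-0.35 to 0.44) and -0.25 (-0.56 to 0.07). Mafa, a transcription factor of mature β cells, was less well measured, at -1.67 to 3.004 log2 CPM after saline and -2.72 to 4.20 after S961, a difference of -0.78 with an interval of -2.71 to 1.16. The dedifferentiation list had a median difference of -0.21, with 1 of 11 means higher and 0 called. Aldh1a3, an enzyme known from dedifferentiated β cells, differed by -0.37 (-0.92 to 0.18). Without S961 replicates 4 and 6 its difference was -0.61 (limma, unadjusted p = 0.024, adjusted p = 0.789), and the median of the list stayed at -0.21.

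The pathway that S961 acts on was close to level. Of 23 genes of insulin and IGF signalling, 14 had the higher mean, 0 were called and 0 reached an unadjusted limma p below 0.05, with a median difference of 0.04. The insulin receptor Insr had 6.07 to 6.65 log2 CPM after saline and 6.06 to 6.79 after S961, a difference of 0.09 with an interval of -0.15 to 0.33. Its adaptor Irs2 differed by 0.04 (-0.21 to 0.30), the related receptor Igf1r by 0.04 (-0.18 to 0.26), and Foxo1, the transcription factor restrained by insulin signals, by 0.06 (-0.21 to 0.32). All 4 intervals lay within a 1.5-fold change. Igf2, a growth factor ligand and the member of smallest p, differed by -0.21 (-0.61 to 0.19).

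Stress and nutrient lists gave no call either. The 25 endoplasmic reticulum chaperone genes had a median difference of 0.04, with 16 means higher, and Edem1, which helps clear misfolded proteins, differed by 0.18 ± 0.13. The 26 ATF4 genes had a median of -0.07, with 5 means higher, and Nupr1, a stress-induced chromatin protein, differed by -0.68 ± 0.39. Its values were 10.26 to 11.27 log2 CPM after saline and 7.84 to 11.29 after S961, with replicate 2 lowest. The 20 carbohydrate response genes had a median of -0.10 and the 20 cholesterol synthesis genes 0.08, led in p by Arrdc4 (0.14 ± 0.14) and Idi1 (0.29 ± 0.25). Glycolysis genes had a median of -0.23, with 14 of 15 means lower, and the glucose transporter Slc2a1 differed by -0.40 ± 0.36. The S961 library lowest in Slc2a1 was replicate 2, at 1.54, and the lowest saline library was replicate 4, at 2.42. Of 17 hypoxia genes, 1 reached an unadjusted limma p below 0.05, Egln3 at 0.54 ± 0.26, which was 0.28 without replicates 4 and 6. The prolactin and serotonin genes, which rise in pregnancy as β cells expand, had a median of -0.03 over 12 members, and Tph2, a serotonin-synthesizing enzyme, differed by 0.37 ± 0.27.

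Other lists were described in the same way, and none had a called member. The median differences were -0.01 for 32 nuclear respiratory chain genes (Cox6c, -0.11 ± 0.08), 0.08 for the 7 mitochondrially encoded genes (mt-Nd5, 0.16 ± 0.32) and 0.04 for 13 immediate early genes (Nr4a2, 0.32 ± 0.16). They were 0.05 for 26 granule genes (Rims2, 0.18 ± 0.13), 0.03 for 17 interferon genes (Usp18, -0.21 ± 0.13) and 0.13 for 10 complement and acute phase genes. C4b, of the last list, has the near-identical copy C4a, so its value of 0.87 ± 0.66 is uncertain. The 17 genes normally disallowed in β cells had a median of -0.21, with 6 means higher, which became 0.01 with 9 higher without S961 replicates 4 and 6. Igfbp4, the member of smallest p, differed the other way, by 0.68 ± 0.49. The 6 Reg genes had a median of -0.40 (Reg1, -0.61 ± 0.41). Among cell cycle inhibitors Cdkn2b differed by 0.23 ± 0.13, and among cyclin D kinases Cdk4 by -0.23 ± 0.25. The 95% interval of each gene named in this paragraph included 0. Without replicates 4 and 6 the medians were 0.28 for mitochondrially encoded, -0.01 for immediate early, -0.04 for interferon, 0.30 for complement and acute phase, 0.02 for granule and -0.26 for Reg genes, and among the lists above -0.20 for ATF4 and -0.23 for carbohydrate response genes.

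**Figure D4:**
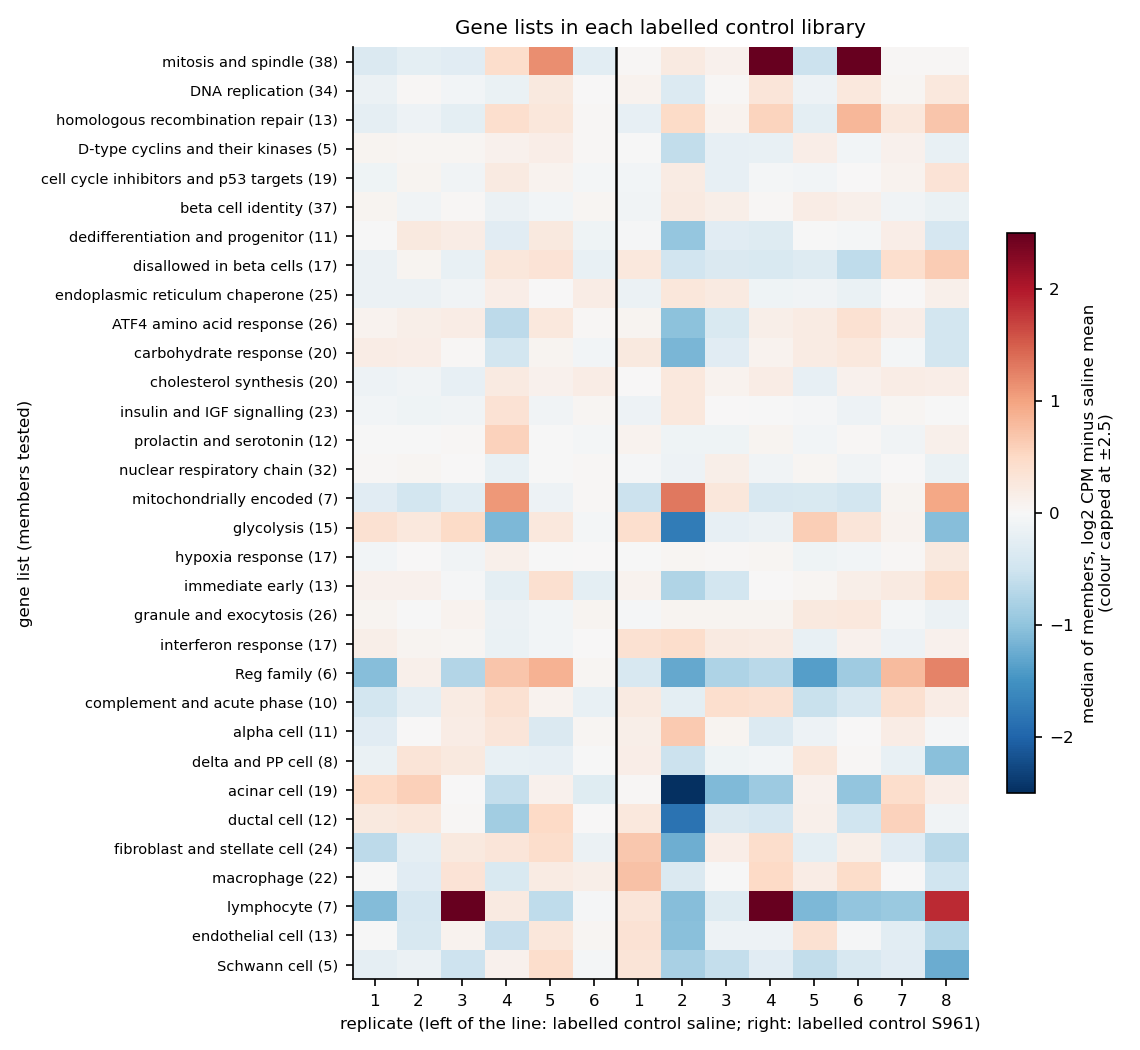
Rows are the 32 gene lists with the number of members tested, columns the 14 labelled control libraries, and the colour is the median over members of the log2 CPM minus the saline mean (capped at ±2.5). S961 replicates 4 and 6 are dark red in the mitosis row, S961 replicates 2 and 8 and saline replicate 4 share the red of the mitochondrially encoded row, and saline replicate 3 and S961 replicate 4 are dark red in the lymphocyte row.

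Markers of the exocrine pancreas, which surrounds the islets and can be carried along by hand picking, had lower means after S961. All 19 acinar genes tested had the lower mean, with a median difference of -0.60 against 0.00 over all genes, 0 called and 1, the trypsinogen Try5, at an unadjusted limma p below 0.05. Try5 had 10.74 to 11.52 log2 CPM after saline and 8.33 to 11.34 after S961, a difference of -0.75 ± 0.36 (limma, adjusted p = 0.973). The summed acinar level was 19989 to 52540 CPM after saline and 7012 to 47153 after S961, lowest in S961 replicate 2. The ranges overlap, with S961 replicates 1, 5, 7 and 8 inside the saline range and replicates 2, 3, 4 and 6 below it. The elastase Cela2a had 8.13 to 10.82 log2 CPM after saline and 5.50 to 10.83 after S961. All 12 ductal genes also had the lower mean, with a median of -0.25 and 0 called, and Epcam, an adhesion protein of epithelia, differed by -0.09 ± 0.06. In the labelled βKlf6KO islets the medians of the same lists for S961 against saline were 0.40 (acinar) and 0.36 (ductal).

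The other islet hormones were compared next. Gcg differed by -0.13 (-0.62 to 0.37), and the 11 α cell genes had a median of -0.01. Sst, the hormone of δ cells, had 9.22 to 9.92 log2 CPM after saline and 8.23 to 9.94 after S961, a difference of -0.35 (-0.86 to 0.16). Ppy, the hormone of PP cells, had 8.45 to 11.45 after saline and 6.54 to 11.52 after S961, a difference of -1.06 (-2.45 to 0.32). The ranges of all 3 hormones overlapped. Of 8 δ and PP cell genes, 7 had the lower mean, with a median of -0.23 and 0 called, and Rbp4, a retinol carrier, differed by -0.34 ± 0.17. Endothelial genes had a median of -0.15 over 13 members (Egfl7, -0.44 ± 0.36), Schwann cell genes -0.29 over 5, fibroblast genes -0.02 over 24 (Col3a1, 0.46 ± 0.34) and lymphocyte genes -0.01 over 7 (Lck, -0.36 ± 0.30). Fcgr3, an antibody receptor of macrophages, differed by 0.29 ± 0.22. Without replicates 4 and 6 the medians were 0.07 for α cell, -0.17 for fibroblast, -0.46 for lymphocyte and 0.04 for macrophage genes.

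**Figure D5:**
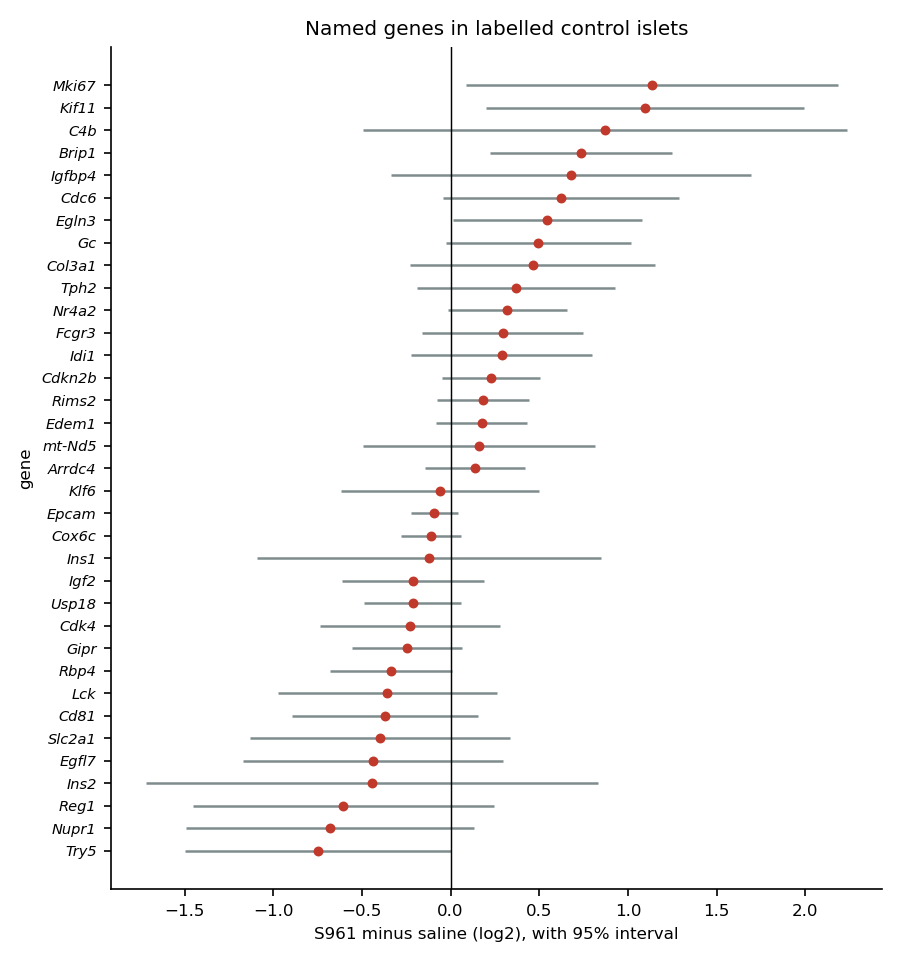
Points are the log2 difference of S961 minus saline in labelled control islets and bars its 95% interval from limma, for the 4 fixed genes and the member of smallest p of each gene list shown. Intervals that leave out 0 belong to Mki67, Kif11, Brip1, Egln3 and Try5, and none of the genes passed the test after adjustment. The spread behind the intervals was shared over all 4 labelled groups, and the exact permutation p of Mki67 was 0.159.

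The response of labelled control islets was set against that of labelled βKlf6KO islets by the difference of both responses. With limma, 0 genes (0%) were called and 350 (2.58%) had an unadjusted p below 0.05, among them 24 of the 38 mitosis genes. The median S961 difference of the mitosis list was 0.57 in control and -0.79 in βKlf6KO islets, where 0 genes (0%) were called. Without control S961 replicates 4 and 6 the control median was -0.06, and the genes at an unadjusted p below 0.05 for the difference of responses numbered 207, with 0 called. For Kif11 the responses differed by 1.69 and for Mki67 by 2.01, each with an adjusted limma p of 0.999995. As both contrasts are read from labels that Klf6 did not follow, these values describe labelled groups.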

How the data were processed

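RNA-seq of mouse islets was analysed from the log2 CPM table that the authors deposited, with 14219 rows of genes and 28 libraries. STAR 2.5.3a, HTSeq 0.9.1, edgeR and the build GRCm38 are named in the submitters' processing notes. Whether counting used the strand is not stated there, and reads of overlapping or antisense genes cannot be told apart without it. The values gave whole reads within 0.05 in 100% of cases. The 13591 genes that reached 1 CPM in 6 or more libraries (628 did not) were fitted with limma 3.58.1 in R 4.3.3 on 4 group means, with an intensity trend, two-sided, and Benjamini-Hochberg adjustment. The fit was tested on simulated data, made by shuffling deviations from the group means over all 28 libraries. This gave every group the same spread, so it cannot show how the fit acts where the control groups spread more. Single measures had exact permutation tests over 3003 arrangements (smallest p = 6.66e-04). Each library was 1 mouse, and all 43 pairs of libraries within the labelled control groups differed beyond sampling noise (lowest chi-square of 33.4 per degree of freedom).

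Named genes were Klf6, Ins1, Ins2 and Mki67, the member of smallest p of each of 32 lists without calls, and the 8 widest gaps in each direction of S961 replicates 4 and 6 to the other 6 S961 libraries (the higher set averaging 4 CPM or more). A few genes that this rule names are not reported here. The 10 highest and lowest called genes were to be added, and there were none. The further genes given as examples of a list, and Synpo2, the trypsinogens, Ppy, Hspa5, Prlr and Gm35279, were chosen after their values were seen. The members and lists were chosen with earlier results of these data known, so lists have counts and medians only. Missing symbols and coordinates came from GENCODE M21, and promoters from RefSeq on GRCm38.p6, 1 per gene. Alternatives covered filters, low values, moderation, weights, scaling, GC content, lane, replicate number and left-out libraries. Fits without S961 replicates 2 and 8 and saline replicate 4, GC correction without the pair, and the first component as a covariate were chosen after seeing the data.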

Additional observations from a re-analysis of the deposited data

Results flagged for a closer look

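In 106 groups of 6 or 8 libraries, taken over the named genes, 7 held a library that stood far from the others, where chance gives about 1 in 20. Saline replicate 4 was low in Ins2 (13.16 log2 CPM, next 15.73) and Cdk4 (5.50, next 6.59) and high in mt-Nd5 (12.35, next 11.29) and Cdkn2b (3.90, next 3.34). S961 replicate 2 was low in Cd81 (4.60, next 5.95). Saline replicate 5 was high in C4b (3.49, next 0.50) and saline replicate 3 in Egln3 (0.96, next 0.13). Saline replicate 4 and S961 replicate 2 had the highest scores on the first component.

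The S961 response of Kif11 differed by 1.69 between labelled control and labelled βKlf6KO islets: every control S961 library was above the control saline mean and every βKlf6KO S961 library below the βKlf6KO saline mean. The control saline mean of -0.69 lay under the median of -0.17, with the lowest saline library at -2.51. The lowest control S961 library, at -0.64, was close to that mean and under that median. The difference of responses did not pass the limma test after adjustment (adjusted p = 0.999995).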

How the results depend on the processing

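In all 33 alternatives 0 genes were called by limma, for S961 against saline and for the difference of responses. Genes at an unadjusted p below 0.05 numbered 40 (filter at 5 CPM) to 735 (library weights, 5.41%), and 65 to 482 over the 14 fits that left out 1 library each. The median difference of the mitosis list ranged from -0.11 to 0.94 (0.25 to 0.81 with 1 library left out), that of the acinar list from -0.93 to -0.30 and that of β cell identity from -0.01 to 0.08. The difference changed sign in at least 1 alternative for 57 of the 104 genes named by the rule or chosen later, none of them called. Within lanes 4, 5, 6 and 7, Klf6 differed by -0.12, 0.29, -0.95 and 0.83, Ins1 by 0.27, -0.87, 1.53 and -1.74, Ins2 by -0.45, -1.90, 1.24 and -1.08, and the Ins1 to Ins2 ratio by 0.72, 1.03, 0.29 and -0.66. Each rests on 1 or 2 libraries per group, and the cause was not tested. With 1 library left out, the differences ranged from -0.27 to 0.07 for Klf6, -0.42 to 0.16 for Ins1, -0.97 to -0.01 for Ins2, 0.17 to 0.55 for the ratio and 0.787 to 1.496 for Mki67. The lowest exact permutation p of a single measure was 0.066, for Mki67 without saline replicate 5. With the replicate block 0 genes were called by limma, 391 had an unadjusted p below 0.05, and the smallest adjusted p was 0.266. No other alternative gave a smaller one. The labels do not say that a number marks a pair. Same-numbered libraries had correlations of 0.48, -0.58, -0.28, -0.11, 0.29 and -0.19 for numbers 1 to 6. So few correlations cannot decide whether a number marks a pair or a batch. The median 95% interval was ±0.39 log2, which limits what these libraries can show for a typical gene.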
